A study of Danio rerio with 4 samples.

Results

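The zebrafish array table held 26 genes whose symbols belong to the Notch pathway or the her family, out of 9658 named genes and 13254 items in all. An item was a named gene, with its probes averaged, or an unnamed probe. Genes were taken by symbol. The platform's symbol or the current RefSeq symbol had to begin with notch, jag, hey or mesp, be her followed by a number, or be dla, dlb, dlc, dld, dll4, mib1 or mib. The 26 comprised 4 receptor genes, 4 Delta ligand genes, 3 Jagged ligand genes, 10 her genes, 2 hey genes and 3 genes that matched by their letters alone. The last 3 were jagn1a and jagn1b, which are jagunal genes, and the current dld. RefSeq's table for assembly GRCz12tu now gives the symbol dld to the gene that the array calls dldh, known for dihydrolipoamide dehydrogenase, and lists the DeltaD gene as dldh. Here dldh is the DeltaD gene. RefSeq lists 44 symbols that meet the same description, with dldh counted for its array symbol dld. The other 18, among them dll4, mib1, her1, her7, heyl and the mesp genes, are not analysed here.

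Notch receptors are cleaved after binding a Delta or Jagged ligand on a neighbouring cell, and the freed intracellular part acts with the RBPJ protein in the nucleus to switch on target genes. Many her and hey genes, which encode bHLH repressors, are such targets. In the zebrafish embryo the pathway is known for holding back neural progenitors from becoming neurons, for the somite clock, for arterial fate and for the first blood stem cells.

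RNA came from whole embryos 28 hours after fertilization. NHA9 embryos carried a transgene that puts the human leukaemia fusion NUP98-HOXA9 under the myeloid spi1 promoter, after Cre from an hsp70 promoter had removed a floxed eGFP cassette. lGl embryos carried the same transgene with the cassette in place and came from a cross to AB wild-type fish, without Cre. Both kinds were kept at 37 °C for 1 hour at 24 hours of age, then at 28 °C, and were sampled 4 hours after the heat shock. Each of 2 pairs of extracts was hybridised on 2 arrays of opposite dye, called forward (NHA9 in the channel labelled Cy5) and dye swap. The 2 arrays of a pair were averaged to 1 replicate (n = 2). The number of embryos per extract is not stated. The p-values rest on a spread between these 2 pairs that limma pooled over all items, not on each gene's own spread. Cre and the second parent also separate the groups and cannot be told apart from the fusion gene.

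All values are log2 ratios, with the base taken as 2, and NHA9 over lGl is the likely direction. The table states neither the base nor the direction. All 4 columns were read as a single contrast because an array and its dye swap ran the same way as deposited (r = 0.747 in replicate 1 and 0.465 in replicate 2 over all probes, which are not independent). Arrays of the same orientation also correlated across replicates (r = 0.449 for the forward arrays and 0.387 for the dye swaps). Arrays that shared neither extracts nor orientation correlated less (r = 0.112 for forward 1 and swap 2, 0.1085 for forward 2 and swap 1). The reading is therefore not settled, and a reading by dye is given at the end. If the ratio is lGl over NHA9, every sign below turns. The arrays of replicate 2 were wider, with interquartile ranges of 0.921 and 0.815 against 0.513 and 0.483 in replicate 1. The table holds ratios only, so the level of a gene is unknown. In whole embryos, fewer cells of a type and less RNA per cell cannot be told apart. Of the probes, 0 were named for the fusion, eGFP or Cre, so the transgene was not checked here.

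No Notch or her gene passed the test across all items. limma's adjusted p was at least 0.146 for all 26, and 0 of 26 were under 0.05, against 2.82% of all items. At an unadjusted p under 0.05 there were 2 of 26, notch3 and her15.1, against 10.4% of all items. The mean ratios ran from −0.82 (notch3) to 0.37 (her9). Of the 26, 18 were below 0, against 47.5% of all items, and 8 above. Their median was −0.09, against 0.02 over all items, and −0.09 again over the 23 without the 3 letter matches. limma gave every item the same standard error of 0.30, so each ratio has a 95% interval of ±0.59, and the smallest ratio called anywhere was 0.96 in size. Differences under that size could therefore not be called in these data.

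**Figure D1:**
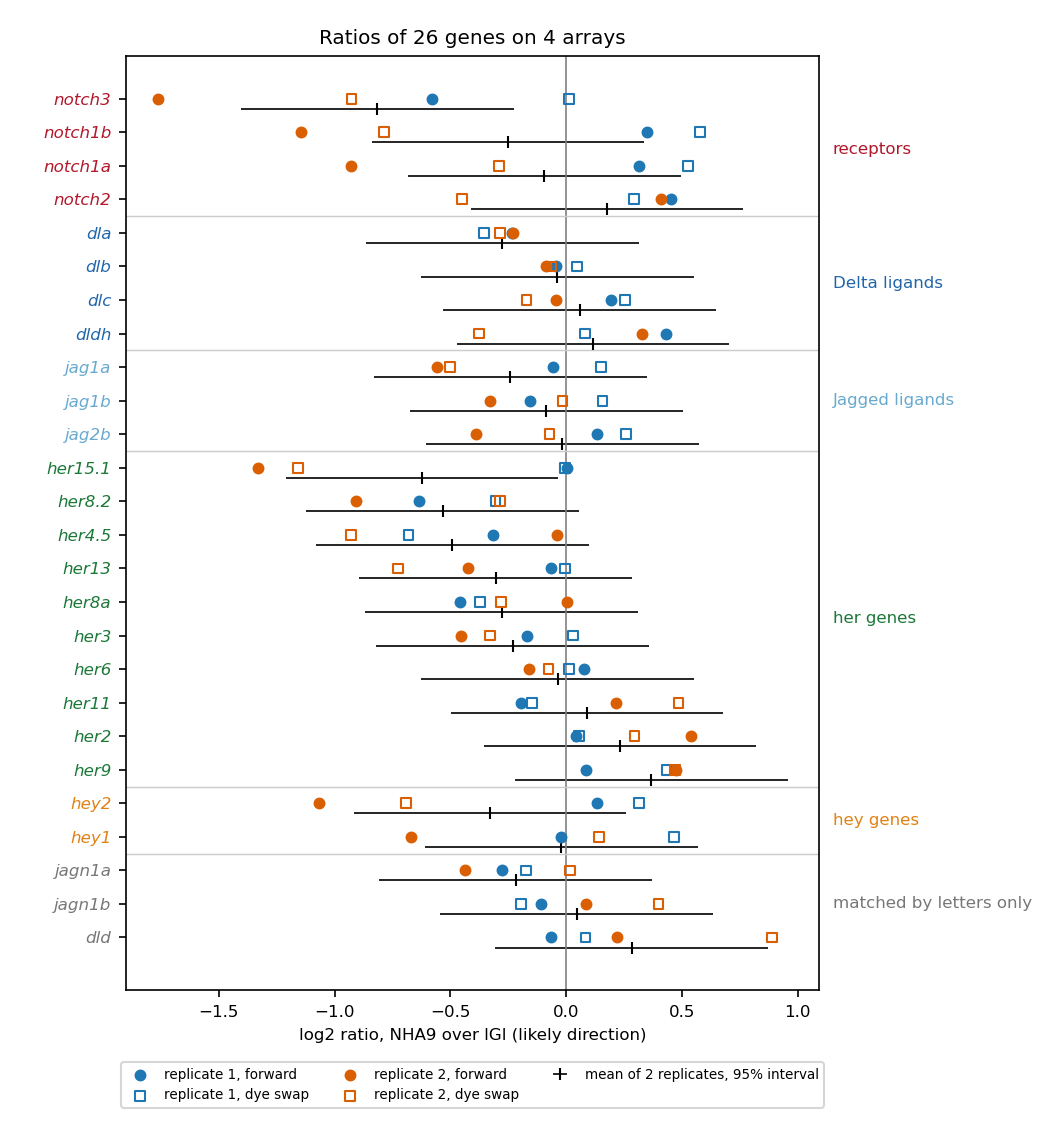
Log2 ratios of NHA9 over lGl (x axis) for each of the 26 genes (y axis), grouped by role, with filled circles for forward arrays, open squares for dye swaps, blue for replicate 1 and orange for replicate 2. The black bar under each row is the mean of 2 replicates with its 95% interval; the orange symbols of notch3, notch1b, her15.1 and hey2 lie left of the blue ones.

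The receptor genes differed between replicates, as did her15.1, hey2 and some other pathway genes described below. notch3, a receptor of neural progenitors and vessel mural cells, was at −0.58 on the forward array and 0.01 on the dye swap of replicate 1. In replicate 2 it was at −1.76 and −0.93. Every array of replicate 2 was thus lower than both of replicate 1. Its mean was −0.82 ± 0.75 (SD, n = 2; limma adjusted p = 0.146), with a 95% interval from −1.40 to −0.23 from the pooled error.

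notch1b was at 0.35 and 0.58 on the forward and dye-swap arrays of replicate 1, and at −1.15 and −0.79 on those of replicate 2. notch1a was at 0.32 and 0.53 in replicate 1, and at −0.93 and −0.29 in replicate 2. For both genes the 2 replicates had opposite signs and did not overlap, so the means of −0.25 ± 1.01 and −0.09 ± 0.73 (SD, n = 2) describe neither. notch2 was at 0.46 and 0.29 in replicate 1, and at 0.41 and −0.45 in replicate 2, where its 2 arrays disagreed in sign. Its replicates thus overlapped, and its mean was 0.18 ± 0.28. The disagreement came from 1 of its 2 probes, at 1.295 and −0.744 in replicate 2. The other probe was at −0.477 and −0.155 there, after 0.272 and 0.456 in replicate 1. All 4 receptor genes were lower in replicate 2 than in replicate 1, against 47.7% of all items. Their median was 0.40 in replicate 1 and −0.79 in replicate 2.

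The Delta ligand genes were nearer to 0. dla, a ligand of neurogenesis, was below 0 on all 4 arrays, at −0.24 and −0.35 in replicate 1 and −0.23 and −0.28 in replicate 2. Its mean of −0.28 ± 0.03 (SD, n = 2) hardly differed between replicates, but its size was within the pooled 95% interval (limma adjusted p = 0.878). Of the 2 probes of dla, 1 was at 0.01 on the forward array of replicate 1. 

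dlb lay between −0.09 and 0.05 on single arrays. dlc, a ligand of the somite clock, was at 0.20 and 0.26 in replicate 1 and −0.04 and −0.17 in replicate 2. The DeltaD gene dldh, which acts with dlc in the clock, was at 0.43 and 0.08 in replicate 1 and 0.33 and −0.38 in replicate 2. The means of dlb, dlc and dldh were −0.04, 0.06 and 0.12, none past the threshold.

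The Jagged ligand genes all had negative means, against 47.5% of all items. These were −0.24 for jag1a, −0.08 for jag1b and −0.02 for jag2b. The sign held for none of them without replicate 2, where jag1a, jag1b and jag2b were at 0.05, 0.00 and 0.20. jag1a was at −0.06 and 0.15 in replicate 1 and at −0.56 and −0.50 in replicate 2, with no overlap. jag1b was at −0.15 and 0.16, then −0.33 and −0.02, and jag2b at 0.13 and 0.26, then −0.39 and −0.07. All 3 were lower in replicate 2 than in replicate 1, against 47.7% of all items.

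Of the 10 her genes, 7 had negative means, against 47.5% of all items, and 3 had positive ones. In limma 0 passed, against 2.82% of all items. her15.1, a Hes5-type target of Notch in neural progenitors, was at 0.01 and −0.00 in replicate 1 and at −1.33 and −1.16 in replicate 2. Its mean of −0.62 ± 0.88 (SD, n = 2; limma adjusted p = 0.433) came from replicate 2 alone.

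her8.2 was below 0 on all 4 arrays, at −0.64 and −0.30 in replicate 1 and −0.91 and −0.28 in replicate 2. The replicates overlapped, and the mean of −0.53 ± 0.09 had a limma adjusted p of 0.562. her4.5, another Hes5-type gene, was also below 0 throughout, at −0.32 and −0.68 in replicate 1 and −0.04 and −0.93 in replicate 2. Its replicate means of −0.50 and −0.48 were almost equal, while within each replicate the dye swap was the lower array. The mean was −0.49 ± 0.01 (SD, n = 2; limma adjusted p = 0.640).

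her13 was the last her gene below 0 on all 4 arrays, at −0.06 and −0.00 in replicate 1 and −0.42 and −0.73 in replicate 2. This was the average of 2 probes, of which 1 was below 0 on all 4 arrays. The other was at 0.32 and 0.155 in replicate 1 and 0.10 and −0.79 in replicate 2. her9, a Hes1 relative, and her2, a Hes5 relative, were above 0 on all 4. her9 was at 0.09 and 0.44 in replicate 1 and 0.47 and 0.47 in replicate 2, with the highest mean of all 26 at 0.37 ± 0.15 (SD, n = 2; limma adjusted p = 0.793). her2 was at 0.04 and 0.06 in replicate 1 and 0.54 and 0.30 in replicate 2. Its replicate 2 values lay above those of replicate 1, where those of her15.1 lay below. Each of the 2 probes of her2 fell below 0 on 1 array of replicate 1, at −0.19 (dye swap) and −0.07 (forward). One sign on all 4 arrays was seen for 4 of 26 genes below 0, against 13.2% of all items, and for 2 of 26 above 0, against 19.3%.

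The remaining her genes had mixed signs over the 4 arrays. her8a was at −0.46 and −0.37 in replicate 1 and 0.00 and −0.28 in replicate 2. her3, a gene that Notch signalling is known to repress in the zebrafish neural plate, was at −0.17 and 0.03, then −0.46 and −0.33. her6, the Hes1 relative of brain boundaries, lay between −0.16 and 0.08 on single arrays. This was the average of 2 probes that had opposite signs in replicate 2, at −0.50 and 0.26. her11, a gene of the midbrain-hindbrain boundary, was at −0.19 and −0.15, then 0.22 and 0.49, so its replicates had opposite signs.

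Some her genes are neighbours. In GRCz12tu no other protein-coding gene lies between her2 and her15.1, whose ratios in replicate 2 were 0.42 and −1.25. None lies between her8.2 and her13 either. They were at −0.47 and −0.03 in replicate 1 and at −0.60 and −0.57 in replicate 2. Both were below 0 on all 4 arrays, though 1 of the 2 probes of her13 was not. her15.1 is followed by its copy her15.2, and her4.5 ends a row of her4 copies (the array calls it her4.2). Probe sequences were not used here, so a probe for 1 copy may also have measured the others.

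The hey genes, targets of Notch in arteries and heart, had means of −0.33 ± 0.78 for hey2 and −0.02 ± 0.34 for hey1 (SD, n = 2). hey2, which in zebrafish is the gridlock gene of the aorta, was at 0.13 and 0.31 in replicate 1 and at −1.07 and −0.69 in replicate 2, again with no overlap. hey1 was at −0.02 and 0.47 in replicate 1 and −0.67 and 0.14 in replicate 2, with the dye swap higher in both. The 3 letter matches were not lower in replicate 2 than in replicate 1. jagn1a was at −0.23 and −0.21 in the replicates, jagn1b at −0.15 and 0.24, and dld, the dehydrogenase gene, at 0.01 and 0.56.

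Counts by replicate were set beside those of all items. In replicate 2, notch3, notch1b, her15.1, hey2 and jag1a were at least 0.5 lower in NHA9 embryos on both arrays, 5 of 26 against 9.21% of all items. In replicate 1 there were 0 of 26, against 5.5%. Replicate 2 lay below replicate 1 by at least 0.5 in both dye orientations for 6 of 26, these 5 and notch1a, against 13.8% of all items. It lay above by as much for 0 of 26, against 12.5%. The step of 0.5, a fold of 1.41, was chosen with the values in view, and jag1a only just met it. In all, 17 of 26 were lower in replicate 2 than in replicate 1, against 47.7% of all items. The median gap was −0.23 against 0.03. The 10 her genes did not share this, with 5 lower and 5 higher in replicate 2 and a median gap of −0.055. The median of the 26 was 0.01 without replicate 2 and −0.22 without replicate 1, so the negative sign depended on replicate 2.

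**Figure D2:**
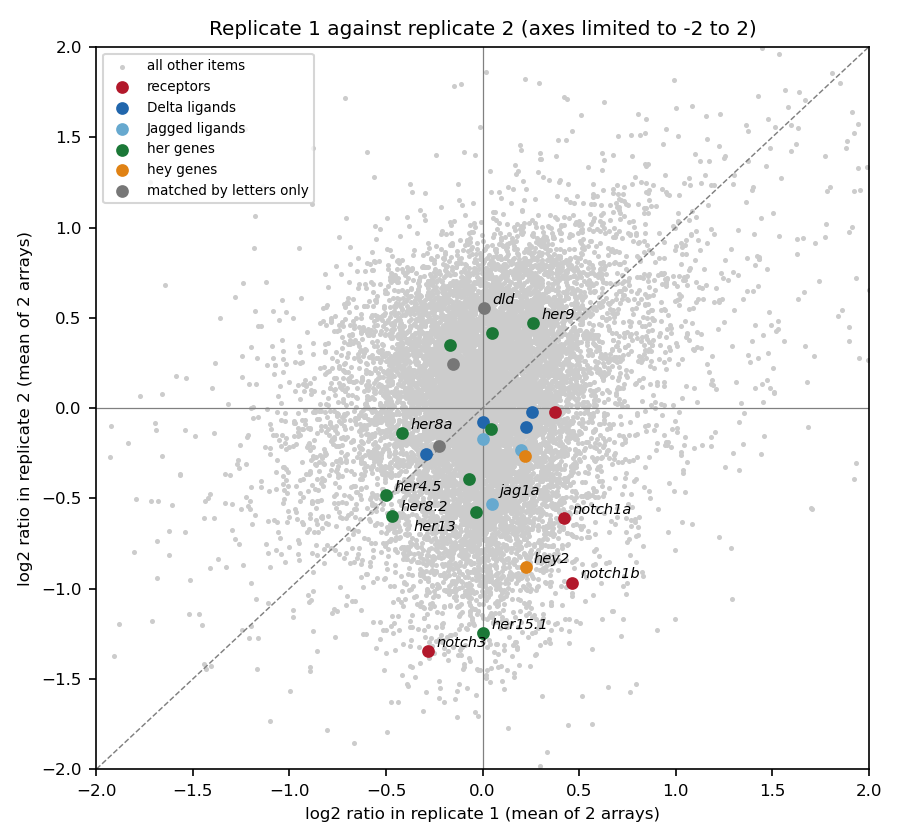
Log2 ratio of each item in replicate 1 (x axis) and replicate 2 (y axis), each the mean of 2 arrays, with the 26 genes coloured by role over all other items in grey; a dashed line marks equal values and the axes stop at −2 and 2. notch1a, notch1b and hey2 lie right of 0 and below 0, while her4.5 and her8.2 lie near the dashed line.

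Across the 26 genes the 2 replicates hardly correlated (r = 0.049, rho = 0.128, n = 26), compared with r = 0.338 and rho = 0.208 over all 13254 items. For the 33 other pathway genes described below they were r = 0.333 and rho = 0.340. Values over all items ran wider, from −7.899 to 6.535 in replicate 1, where the 26 ran from −0.50 to 0.46. An array and its dye swap correlated over the 26 with r = 0.706 in replicate 1 and 0.641 in replicate 2. These are descriptions over genes that share arrays, and the genes were not independent of each other.

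Genes with several probes showed how far the values depended on a probe. Of the 26, 16 had 2 or 3 probes and 10 had 1, and the range between probe means had a median of 0.27, against 0.24 over all 4651 genes with several probes. Both probes of notch1b, of hey2 and of jag1a were lower in replicate 2 than in replicate 1. notch1b was at 0.63 and 0.30 in replicate 1 on its 2 probes, and at −1.16 and −0.78 in replicate 2.

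notch1a had the widest range between probes, 0.92. In replicate 1 its 3 probes were at −0.70, 0.56 and 1.40, so even the sign differed, while in replicate 2 they were at −0.33, −0.92 and −0.58. The 2 probes of her15.1 agreed in sign but not in size in replicate 2, at −2.0 and −0.49, and were at 0.01 and −0.01 in replicate 1. With each probe tested apart, the first of these had a mean of −1.0 and missed the threshold (limma adjusted p = 0.0526). notch3, her4.5, her8.2, her9, her11, dlc and hey1 rest on 1 probe each.

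**Figure D3:**
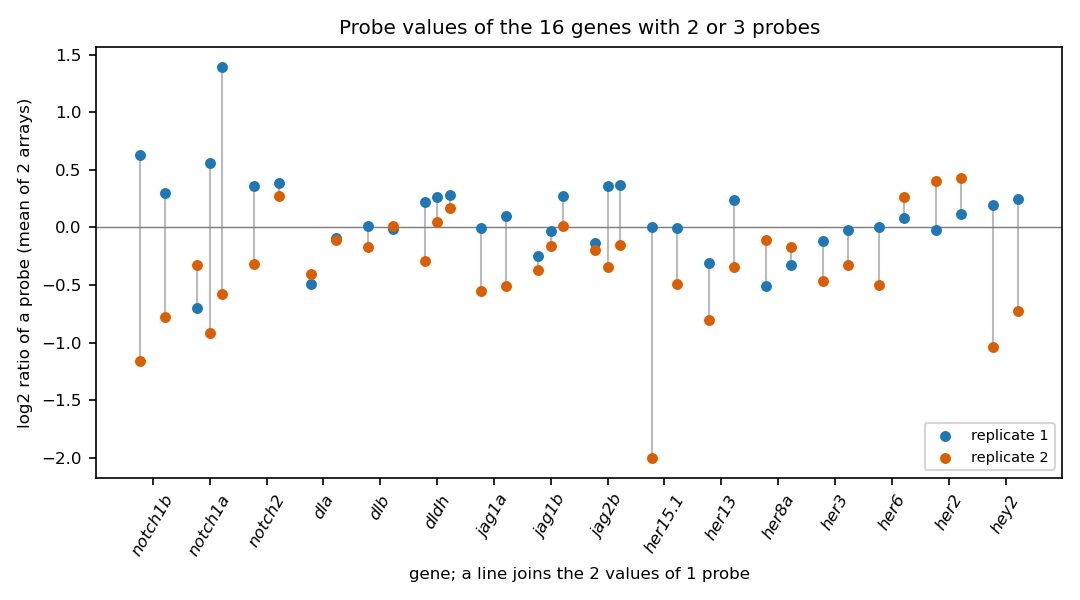
Log2 ratio of each probe (y axis; mean of 2 arrays) for the 16 genes with 2 or 3 probes (x axis), with blue for replicate 1 and orange for replicate 2 and a grey line joining the values of a probe. Both probes of notch1b, hey2 and jag1a lie lower in replicate 2, while 1 probe of notch1a runs the other way.

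Other components of the pathway were taken from a list of 56, of which 33 were measured. In limma 0 were higher and 0 lower at an adjusted p under 0.05 (lowest 0.237), against 2.82% of all items called. At an unadjusted p under 0.05 there were 5 of 33, against 10.4% of all items. Their median was −0.07, with 19 of 33 means negative, against 47.5% of all items, and 14 positive. The highest were dtx2, a Deltex gene, at 0.72, the Fringe gene rfng at 0.60 and the metalloproteinase gene adam17a at 0.52. The lowest were the ubiquitin ligase gene mib2 at −0.74, the Groucho-type corepressor gene tle2a at −0.71 and helt, a her-related gene of the midbrain, at −0.62.

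The list also differed by replicate, with 25 of 33 lower in replicate 2, against 47.7% of all items, and medians of 0.17 and −0.18. mib2 was at −0.11 in replicate 1 and −1.37 in replicate 2, tle2a at −0.10 and −1.32, and helt at −0.04 and −1.20. The 3 highest genes were among the 8 higher in replicate 2, with dtx2 at 0.70 and 0.75, rfng at 0.38 and 0.83 and adam17a at 0.16 and 0.88. nrarpa, a feedback inhibitor and target of Notch, was at 0.35 and −1.30, and the Fringe gene lfng at 0.39 and −0.63. nrarpb was also lower in replicate 2 but stayed above 0, at 0.55 and 0.13. Of the genes of the DNA-binding partner, rbpjb was lower in replicate 2 at 0.63 and 0.28, and rbpja was higher at 0.25 and 0.36. Both were above 0 on all 4 arrays. nrarpa, nrarpb, lfng, rbpja and rbpjb were picked after their values were seen.

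Lists of cell types in which the pathway acts were measured beside these genes. All 13 proneural and early neuronal genes were lower in replicate 2 than in replicate 1, against 47.7% of all items. Their medians were 0.13 in replicate 1 and −0.61 in replicate 2, with ranges from −0.08 to 0.36 and from −1.69 to 0.05. Of 8 neural progenitor and glial genes 7 were lower, with medians of 0.04 and −0.48. In each list 0 genes passed in limma, against 2.82% of all items. An unadjusted p under 0.05 was seen for 2 of the 13 neuronal genes, against 10.4% of all items. The medians of the neural lists were lower in replicate 2, as were notch3, notch1b, notch1a, her15.1 and hey2, which were named here for that gap. Of the 26 genes 9 were not lower in replicate 2, among them dla, her4.5, her2 and her11. The part of neural cells in these values was not tested.

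The 8 paraxial mesoderm genes had medians of 0.00 in replicate 1 and 0.18 in replicate 2. Of these, tbxta (0.80 and −0.66) and ripply1 (0.06 and −0.55) were lower in replicate 2 and 6 were higher. The 8 measured genes of the endothelial and arterial list had medians of 0.12 and −0.02, with 4 lower in replicate 2. These were kdrl, tek, etv2, flt4, flt1, tal1, fli1a and cdh5. efnb2a, tbx20, pecam1 and tie1 of that list were not measured, so the medians do not describe arteries in particular. How these lists differ from the neural ones was not tested. The 8 leukocyte genes, of the lineage in which the spi1 promoter acts, were above 0 on all 4 arrays, against 19.3% of all items. Their medians were 0.76 and 0.58, and 3 of them passed in limma, against 2.82% of all items. Of these 3, lyz differed by orientation, with forward arrays at 1.71 and 1.95 and dye swaps at 0.94 and 0.03. Read by dye it passed too (limma adjusted p = 0.00036), while mpx and mpeg1.1 did not (0.646 and 0.349).

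**Figure D4:**
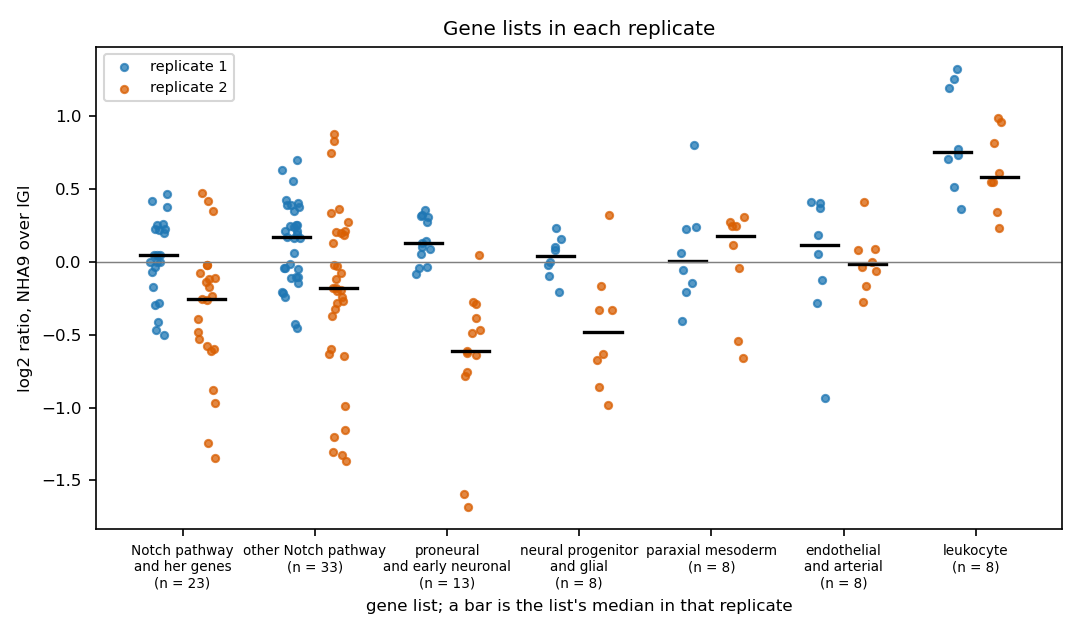
Log2 ratios of single genes (y axis) in replicate 1 (blue) and replicate 2 (orange) for 23 Notch and her genes without the letter matches and for 6 other lists (x axis, with the number measured); black bars are medians. The medians of the neural lists are 0.13 and −0.61, and 0.04 and −0.48, while the leukocyte genes stay above 0 in both replicates.

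Reading the columns by dye, with the sign of the dye swaps turned, gave other calls. In limma 3 of 26 genes then passed, notch3 at −0.36 (adjusted p = 0.0111), hey1 at −0.32 (adjusted p = 0.0201) and her4.5 at 0.31 (adjusted p = 0.0289), against 14.9% of all items. For her4.5, and for 8 of the 26 genes in all, the sign was opposite to that of the single contrast. The median of the 26 in that reading was −0.07.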

How the data were processed

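Each of 4 arrays had a deposited log ratio for 20406 probes, here taken as log2. How the authors scanned, background-corrected and normalized the arrays, and the log base and direction, is not given in the sources used here. Per the labels' protocols, Alexa dyes were put directly into the cDNA, and extracts with little RNA went through an amplification step, without naming them. The same labels call the channels Cy5 and Cy3. Intensities of spots were not used here. Signal over background is thus unknown, and the number of arrays limits the precision.

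Probes were named through the platform's annotation table (16810 with 1 symbol, 0 with several, 3596 unnamed), updated through RefSeq's GRCz12tu gene table by accession (14620), symbol (1671) or synonym (506), with 4 kept. Another 9 probes took the gene of the other probes of their platform symbol. Probes of a gene were averaged. limma 3.58.1 under R 4.3.3 tested whether the mean of both replicates was 0 (lmFit, then eBayes), and p-values were adjusted by Benjamini-Hochberg over 13254 items, with 0.05 as the threshold. The script was checked on simulated data, drawn with the same SD for every item and for both replicates. That check could not show how unequal spreads between replicates or genes affect the calls. limma's prior degrees of freedom were infinite, so all items shared a pooled SD of 0.425. Same-numbered extracts share an array, so each ratio is already paired. Alternatives were another reading of the dyes, replicate blocks, scalings, probe summaries, namings, single orientations, single replicates and a robust prior.

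The genes and lists were chosen with earlier results of these data known. Every measured gene of the rule is named, with values on all 4 arrays or their range, or with replicate means for the 3 letter matches. Of the other pathway genes, those past the threshold and the 3 highest and 3 lowest are named.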

Additional observations from a re-analysis of the deposited data

Results flagged for a closer look

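In 3 genes the forward and dye-swap arrays differed by a test of that difference, made by reading the columns by dye with limma. The values below are the mean over replicates of (forward minus dye swap) divided by 2, on the log2 scale. notch3 was at −0.36, with forward arrays lower in both replicates (adjusted p = 0.0111). hey1 was at −0.32, again with forward arrays lower in both replicates (adjusted p = 0.0201). her4.5 was at 0.31, with forward arrays higher in both replicates (adjusted p = 0.0289). Over all items 14.9% passed that test, and each of the 3 genes rests on 1 probe. Whether dye or labelling plays a part was not tested.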

How the results depend on the processing

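The count of 0 called among the 26 genes held under 11 of the 13 alternatives with a test. It was 3 when read by dye and 1 with forward arrays alone, where notch3 was at −1.17 (limma adjusted p = 0.0107). Of the other pathway genes 1 passed when read by dye and 0 under the other 12. Over all items 374 passed, against 1981 read by dye, 228 once arrays were scaled to equal spread and 615 from forward arrays alone. In paired fits on all 4 arrays there were 246 with a replicate block and a dye term and 114 with a replicate block and no dye term, with 0 of the 26 genes called in either. Read by dye, 8 of the 26 genes turned sign, and of these only her4.5 passed, at 0.314.

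The median of the 26 genes stayed below 0 under all 13, and was 0.01 without replicate 2 and −0.22 without replicate 1. No test is possible with 1 pair of extracts. Besides the reading by dye, 19 of 26 genes kept 1 sign under the 11 other alternatives with 1 value per gene (25 of them were matched by platform symbols alone), and dldh, hey1, jag1b, jag2b, jagn1b, notch1a and notch2 did not. With single replicates, 3 genes turned sign without replicate 1 and 12 without replicate 2, hey2 and notch1b among them. The 12 include dlb, her15.1 and jag1b, which were only at 0.001 without replicate 2, so their sign there means little. Counted in this way, 11 of 26 kept 1 sign throughout, the reading by dye aside. By at least 0.5 in both orientations, 6 of the 26 genes were lower in replicate 2 than in replicate 1, against 13.8% of all items. With a step of 0.25 there were 10, against 24.5%. There were 5, without jag1a, with a step of 0.75 (7.16% of all items), after scaling (14.7%) or after quantile normalization (13.8%). These alternatives, and naming by spelling alone, were added after seeing the data. Spot depth and signal over background are unknown here.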
